A study of Mus musculus with 18 samples.

Results

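The bone morphogenetic protein (BMP) ligands, receptors and secreted antagonists were followed in mouse embryonic stem (ES) cells grown on stroma and in the stroma by itself. The set holds 10 genes of the 30854 named on the array, taken by name whatever their level: the ligands BMP2, BMP4, BMP6 and BMP7, the receptors BMPR1A, BMPR2 and ACVR1, and the antagonists GREM1, NOG and CHRD. They were read by 15 probes. Of the 10 genes, 7 had a probe that was detected on at least 3 of the 18 arrays and were tested among 16446 genes, whereas BMP2, BMP6 and NOG had none.

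The study asked which signals drive ES cells toward endothelium in the presence of FGF2 or BMP4. Co-cultures (ES/PA6) and mono-cultures of PA6 cells were collected after 3 days in serum-free N2B27 medium without growth factors (-GFs), with recombinant FGF2 at 20 ng/ml or with recombinant BMP4 at 10 ng/ml, as the labels give the doses. For slide cultures the methods of the study describe less BMP4. Each of the 6 groups held 3 biological replicates, with 1 well per condition in each. Per the study's methods, the ES cells carried the enhanced green fluorescent protein knocked in under the τ promoter and had been kept on fibroblasts with LIF, and the growth factors were human FGF2 and murine BMP4. PA6 is a mouse stromal cell line. All groups thus share the PA6 cells, the medium and the day, and no group held ES cells without stroma. A co-culture array reads the RNA of both cell types together, so that a transcript cannot be assigned to its source, and fewer cells of a type and less RNA per cell cannot be told apart. The arrays read transcripts, so the BMP4 values below are endogenous mRNA and not the protein added to the medium.

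BMP ligands are secreted dimers that bring together type I receptors such as BMPR1A and ACVR1 with type II receptors such as BMPR2. The receptors phosphorylate SMAD1, SMAD5 and SMAD9, which enter the nucleus with SMAD4 and switch on targets such as the ID genes. Gremlin (GREM1), noggin (NOG) and chordin (CHRD) bind the ligands outside the cell and keep them from the receptors. In the early embryo and in ES cell cultures, BMP signaling favors mesoderm and restrains neural fate.

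Each co-culture array detected 19365 to 20412 probes and each mono-culture array 17125 to 18391. Across genes, r was 0.981 to 0.992 within a group and 0.799 to 0.865 from one culture type to the other. Levels are log2 normalized intensities, which have no meaning between probes, and a probe was taken as detected on an array at a detection p under 0.05 against the negative control beads. On this reading, 5 of the 15 probes were detected on 0 arrays. These were the single probes of BMP2, BMP6 and NOG and the BMPR2 probes ILMN_2768587 and ILMN_2614322. The second BMP7 probe, ILMN_1249526, was detected on 1 array only. BMP4 (ILMN_1215252), BMPR1A (both probes), ACVR1 and CHRD were detected on all 18 arrays, while BMP7, GREM1, BMPR2 and the second BMP4 probe were detected in some groups and not in others.

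**Figure D1:**
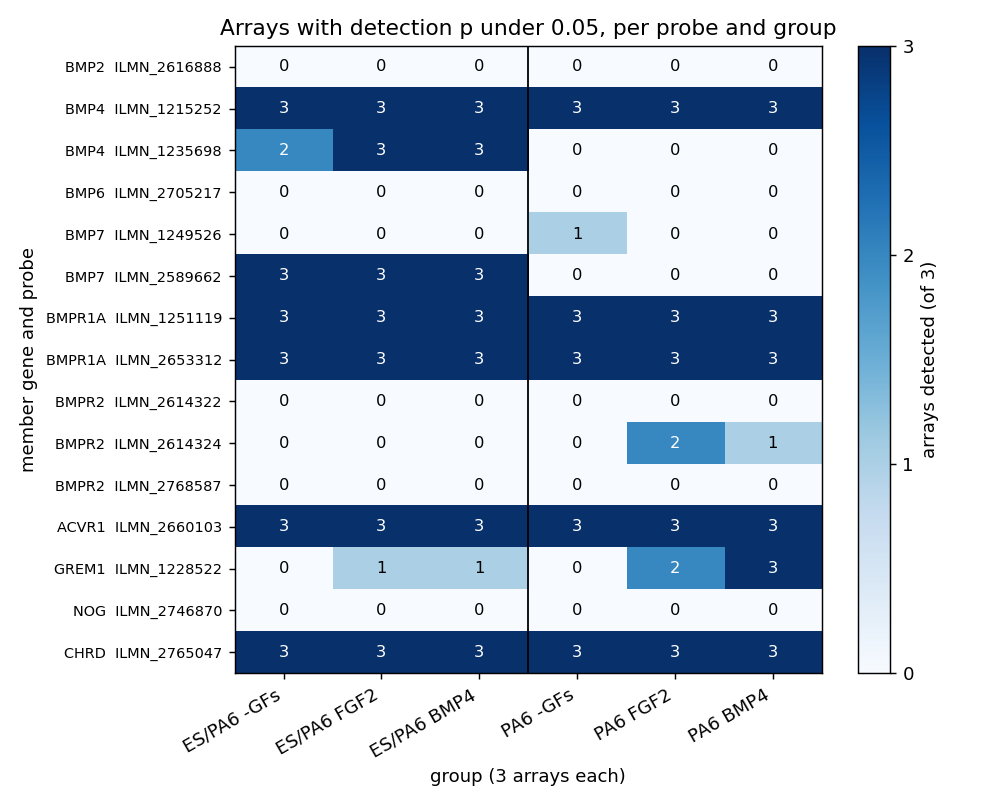
Number of arrays, of 3 in each group, on which each of the 15 probes (rows) was detected at a detection p under 0.05, by group (columns). BMP7 (ILMN_2589662) was detected on all 3 arrays of every ES/PA6 group and on 0 PA6 arrays, and GREM1 on 0 arrays of PA6 -GFs and on 3 of PA6 BMP4.

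A gene was called where its adjusted p was below 0.1 and it changed by more than 1 on the log2 scale, in a limma fit of all 18 arrays, with Benjamini-Hochberg adjustment over the 16446 genes. With the brightest detected probe standing for each gene, all calls with a growth factor were made in the stroma. A call of the second BMP4 probe in the co-cultures is given below. In PA6 mono-cultures with BMP4, the BMP4 transcript was called lower and GREM1 higher, 2 of the 7 tested genes against 1.41% of all genes. The BMP4 call was lost in 8 of 31 alternative settings and its arrays overlapped, whereas the GREM1 call was lost in 0 of 30. BMPR2 was called higher with FGF2 in the same cells, 1 of 7 against 5.27% of all genes. It passed the detection filter only through 3 arrays, 2 of PA6 FGF2 and 1 of PA6 BMP4. This call is therefore no independent support for a rise. BMP4 mRNA was higher with FGF2 than with BMP4 in PA6 cells, 1 of 7 against 5.82%. The median log2 fold change of the 7 genes was 0.38 with FGF2 and -0.13 with BMP4, beside -0.01 and 0.01 over all genes.

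In the ES/PA6 co-cultures none of the 7 genes was called by limma, 0 of 7 with FGF2 against 3.34% of all genes, 0 of 7 with BMP4 against 0.76%, and 0 of 7 between FGF2 and BMP4 against 2.85%. An unadjusted p under 0.05 was reached by 3 of the 7 genes with FGF2 (17.8% of all genes), by 1 with BMP4 (10.9%) and by 0 between the growth factors (17.4%). The medians of the 7 genes were 0.29 with FGF2 and 0.24 with BMP4, beside -0.01 and -0.00 over all genes. The comparisons with FGF2 and with BMP4 share their -GFs arrays in each culture type.

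In -GFs medium, ES/PA6 co-cultures differed from PA6 mono-cultures in 3 of the 7 genes, where 39% of all genes were called. BMP7 was higher, 1 of 7 against 19.4% of all genes, and ACVR1 and CHRD were lower, 2 of 7 against 19.5%. BMP7 passed the detection filter only through co-culture arrays, so its call is no independent support for a difference. The effect of a growth factor was then compared between culture types as an interaction contrast of the same fit. By limma, 0 of 7 genes were called for FGF2, where 7.39% of all genes were, and 0 of 7 for BMP4, where 0.559% were. An unadjusted p under 0.05 was reached by 2 genes in each, where 23.8% and 9.74% of all genes reached it.

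**Figure D2:**
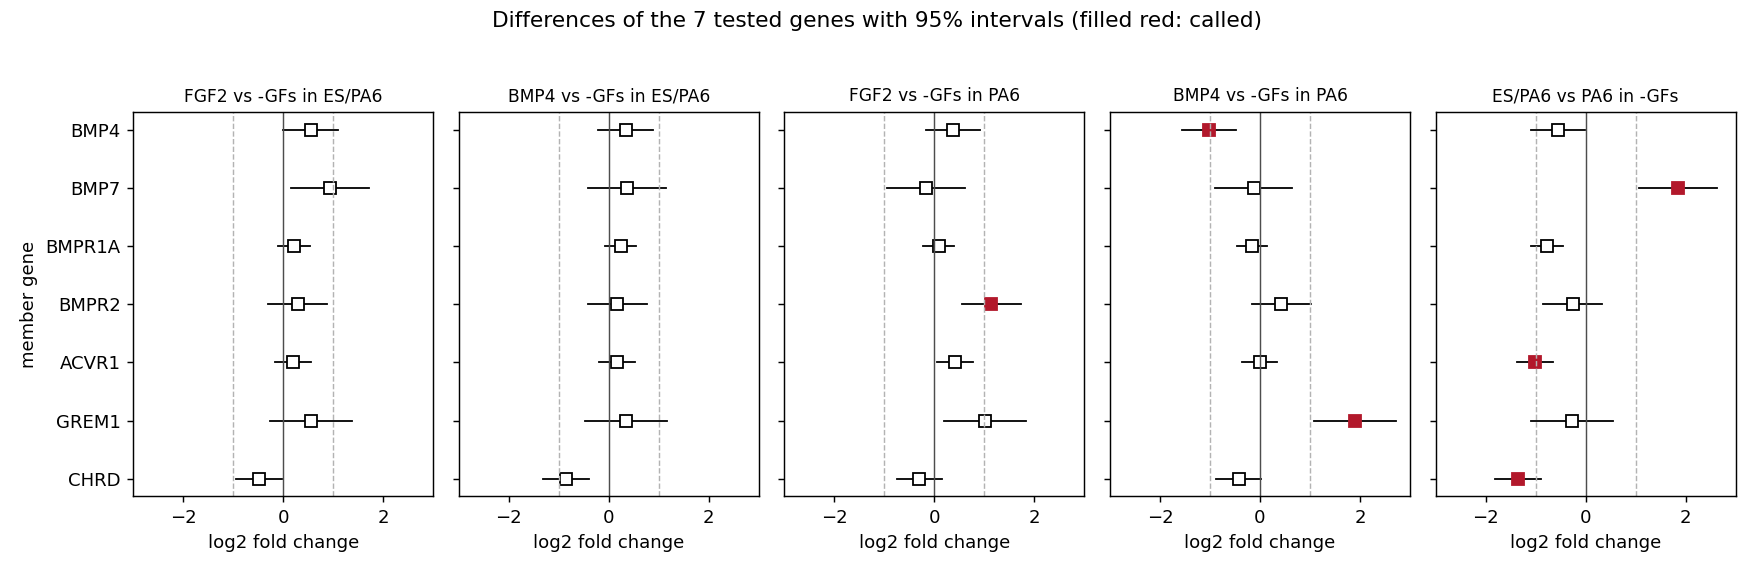
Log2 fold change (x axis, squares) with its 95% interval (lines) of the 7 tested genes in 5 comparisons of the limma fit, with filled red squares for called genes and dashed lines at the fold threshold. The called genes are BMPR2 with FGF2 in PA6 (1.14), BMP4 (-1.02) and GREM1 (1.90) with BMP4 in PA6, and BMP7 (1.84), ACVR1 (-1.02) and CHRD (-1.36) between culture types.

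The promoters of the genes called with BMP4 in PA6 cells are shown because SMAD proteins bind short motifs in such regions. The windows are those of RefSeq on GRCm38.p6, run from 250 bases before to 50 bases after the annotated start, and were found for 7 of the 10 genes. Capitals mark the motifs searched on both strands, the GC-rich box GGCGCC and the SMAD box CAGAC. The GREM1 window is chr2:113758599-113758898 and the BMP4 window chr14:46390620-46390919, both on the minus strand and written 5′ to 3′.
GREM1: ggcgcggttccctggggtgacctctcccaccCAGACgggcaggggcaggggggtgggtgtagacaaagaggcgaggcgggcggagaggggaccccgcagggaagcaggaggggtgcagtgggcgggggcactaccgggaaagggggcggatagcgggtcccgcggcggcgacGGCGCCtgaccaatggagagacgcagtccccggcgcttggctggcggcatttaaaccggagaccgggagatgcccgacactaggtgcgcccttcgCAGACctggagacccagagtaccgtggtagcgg
BMP4: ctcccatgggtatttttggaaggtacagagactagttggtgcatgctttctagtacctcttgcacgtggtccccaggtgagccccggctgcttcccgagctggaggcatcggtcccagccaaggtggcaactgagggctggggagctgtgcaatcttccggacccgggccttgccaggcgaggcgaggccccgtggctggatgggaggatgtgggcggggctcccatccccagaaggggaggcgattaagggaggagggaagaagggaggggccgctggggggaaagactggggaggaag
The GREM1 window held GGCGCC once and CAGAC at 2 places, whereas neither motif occurred in the BMP4 window. GGCGCC was present in 4 of the 7 promoters (BMPR1A, BMPR2, GREM1 and CHRD) and in 11.9% of 32851 promoters of the same length. CAGAC was present in 3 of the 7 (BMP6, GREM1 and CHRD) and in 49.6% of all. A match is a string of letters and was not tested as a binding site.

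BMP4, a ligand that patterns mesoderm and the ventral embryo, was expressed in both culture types and was the only ligand of the set detected on every array. Its brighter probe, ILMN_1215252, read 10.27, 11.25 and 11.42 in PA6 -GFs, 9.75, 9.75 and 10.37 in PA6 BMP4, and 11.07, 11.32 and 11.68 in PA6 FGF2. Replicate 1 of PA6 -GFs lay below the other two -GFs arrays, and through it the -GFs and BMP4 ranges overlapped, while every FGF2 array lay above every BMP4 array. With BMP4 treatment the transcript was called 2.03-fold lower by limma (log2 fold change -1.02, SE 0.257, adjusted p = 0.0471), with a lower value in 3 of 3 replicate sets. The call was lost without PA6 -GFs replicate 2 (-0.89) or 3 (-0.80) and without PA6 BMP4 replicate 1 (-0.92) or 2 (-0.92), and the difference was -1.38 without PA6 -GFs replicate 1. The call was also lost when only the PA6 arrays were fitted (-1.02, adjusted p = 0.14). Without background correction by quantile or spline the difference (-0.96 in both) fell just under the fold threshold. FGF2 against BMP4 in PA6 cells differed 2.64-fold (1.40, SE 0.257, adjusted p = 0.0012), higher with FGF2, and FGF2 against -GFs by 0.38 (95% interval -0.17 to 0.92), which was not called.

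In the co-cultures the same BMP4 probe read 10.20, 10.45 and 10.62 in -GFs, 10.99, 11.00 and 10.92 with FGF2, and 10.53, 10.93 and 10.83 with BMP4. All 3 FGF2 arrays lay above all 3 -GFs arrays, but the difference of 0.55 (95% interval 0.00 to 1.09, adjusted p = 0.279) was not called. With BMP4 the difference was 0.34 (95% interval -0.21 to 0.88), opposite in sign to the mono-cultures. The effect of BMP4 on its own transcript differed between culture types by 1.36 (SE 0.363, adjusted p = 0.151), which was not called. It was called with the replicate number as a block (1.36, adjusted p = 0.016), where 305 genes were called in that contrast in place of 92, and without PA6 -GFs replicate 1 (1.72, adjusted p = 0.022). By mean level the order was PA6 FGF2 (11.36), PA6 -GFs (10.98), ES/PA6 FGF2 (10.97), ES/PA6 BMP4 (10.76), ES/PA6 -GFs (10.43) and PA6 BMP4 (9.96), and the arrays of each pair of neighbours overlapped.

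A second BMP4 probe, ILMN_1235698, was dimmer. It was not detected on any PA6 array, where it read 4.96 to 5.35, and was detected on 2, 3 and 3 co-culture arrays of the -GFs, FGF2 and BMP4 groups. It read 6.06, 5.42 and 6.57 in ES/PA6 -GFs, 7.12, 7.17 and 6.95 with FGF2, and 6.19, 6.04 and 7.15 with BMP4. All FGF2 arrays lay above all -GFs arrays, while the BMP4 and -GFs arrays overlapped. In a limma fit over the 22987 detected probes, this probe rose 2.09-fold with FGF2 in the co-cultures (1.06, SE 0.268, adjusted p = 0.0252), where 3.03% of probes were called. The interaction contrast of FGF2 was 1.16 (SE 0.379, adjusted p = 0.0641), where 7.43% of probes were called, but its PA6 side was at background, so that this probe could not measure an FGF2 effect there. The first of these calls was lost in 4 of 29 alternatives, without ES/PA6 -GFs replicate 2 (0.76), without background correction by quantile or spline (0.55 in both) and from the co-culture arrays alone (1.06, adjusted p = 0.151), and the second in 11 of 28 alternatives. Among these were ES/PA6 -GFs replicate 2 left out (0.86, adjusted p = 0.148) and, at 1.09 to 1.17 with adjusted p-values of 0.11 to 0.118, replicates 1 and 2 of ES/PA6 FGF2, 1 and 3 of PA6 -GFs, and 1 and 2 of PA6 FGF2. Being undetected there, it does not bear on the fall of ILMN_1215252 with BMP4 in PA6 cells. When the detected probes of the gene were averaged, the difference was -0.51 (adjusted p = 0.302), and FGF2 against BMP4 in PA6 cells was 0.65 in place of 1.40 and no longer called, an average that takes in the undetected probe. Between culture types ILMN_1215252 differed by -0.56 (95% interval -1.10 to -0.01), which was not called. ILMN_1235698 went the other way, with every co-culture array above every PA6 array. Its limma difference in -GFs medium was 0.81 (adjusted p = 0.0139), past the p threshold and not the fold threshold. Without ES/PA6 -GFs replicate 2 it was 1.11 (adjusted p = 0.00136) and was called. With its PA6 side at background, the size of this difference is not exact, and the probe passed the detection filter only through co-culture arrays. In the FGF2 comparison of the co-cultures, 2 of 6 pluripotency markers, NANOG (1.25) and ZFP42 (1.19), were called higher. The others were not called and were mixed, with SOX2 at 0.45, TDGF1 at 0.93, POU5F1 at -0.10 and UTF1 at -0.73. By limma UTF1 passed the p threshold (adjusted p = 0.00509) and not the fold threshold. Of 8 stromal markers 1, THY1 (-1.08), and of 4 adipocyte markers 1, ADIPOQ (-2.37), were lower. The pluripotency markers' mean level was 12.08 to 12.42 with FGF2 against 11.31 to 12.05, and the stromal markers' was 10.02 to 10.19 against 10.54 to 10.76. The part of these markers in the rise of ILMN_1235698 with FGF2 was not tested.

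BMP7, a ligand of the branch that also signals through ACVR1, was read in the co-cultures and in no PA6 array by ILMN_2589662. It read 6.93, 6.10 and 8.16 in ES/PA6 -GFs, 7.75, 7.90 and 8.35 with FGF2, and 7.26, 7.03 and 7.99 with BMP4, against 4.89 to 5.34 over the 9 PA6 arrays. Every co-culture array lay above every mono-culture array, and the -GFs arrays of the co-cultures were the most spread (SD 1.04, n = 3). In -GFs medium the mean of BMP7 was at least 1.7-fold higher in the co-cultures (limma log2 fold change 1.84, SE 0.365, adjusted p = 0.000292). Without background correction the difference was 1.03 (adjusted p = 0.000474). The probe passed the detection filter only through co-culture arrays, so the call is no independent support for a difference. The bound is used because the probe was undetected in PA6 -GFs. It sets the mean of the bright group against, on each dim array, the higher of the probe's own value and the lowest detected value. Over the PA6 -GFs arrays these higher values averaged 6.30, above the 6.10 of ES/PA6 -GFs replicate 2, so the bound holds for the means only.

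With FGF2 in the co-cultures, BMP7 differed by 0.94 (95% interval 0.16 to 1.71, adjusted p = 0.167), higher in 3 of 3 replicate sets and not called. Without ES/PA6 -GFs replicate 3, the brightest of its group, the difference was 1.49 (adjusted p = 0.00456) and was called, as it was under median scaling (1.01, adjusted p = 0.091). The interaction contrast of FGF2 for BMP7, whose PA6 side was undetected, was 1.11 (adjusted p = 0.205), a value called under the replicate block (1.11, adjusted p = 0.0321) and without ES/PA6 -GFs replicate 3 (1.65, adjusted p = 0.0107). The order of the means was ES/PA6 FGF2 (8.0), ES/PA6 BMP4 (7.43) and ES/PA6 -GFs (7.06), whose arrays overlapped from each to the next, followed by the 3 undetected PA6 groups. The second BMP7 probe read 5.0 to 6.24, and its only detected array was PA6 -GFs replicate 2.

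BMP2 and BMP6, ligands of the BMP2/4 and BMP5/6/7 branches of the family, remained below detection in every group. BMP2 read 4.78 to 5.50 with a lowest detection p of 0.176, and BMP6 read 4.82 to 5.12 with a lowest detection p of 0.353. No level or fold is given for them, since a dim probe bounds what was detectable here and does not show that the transcript was absent.

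**Figure D3:**
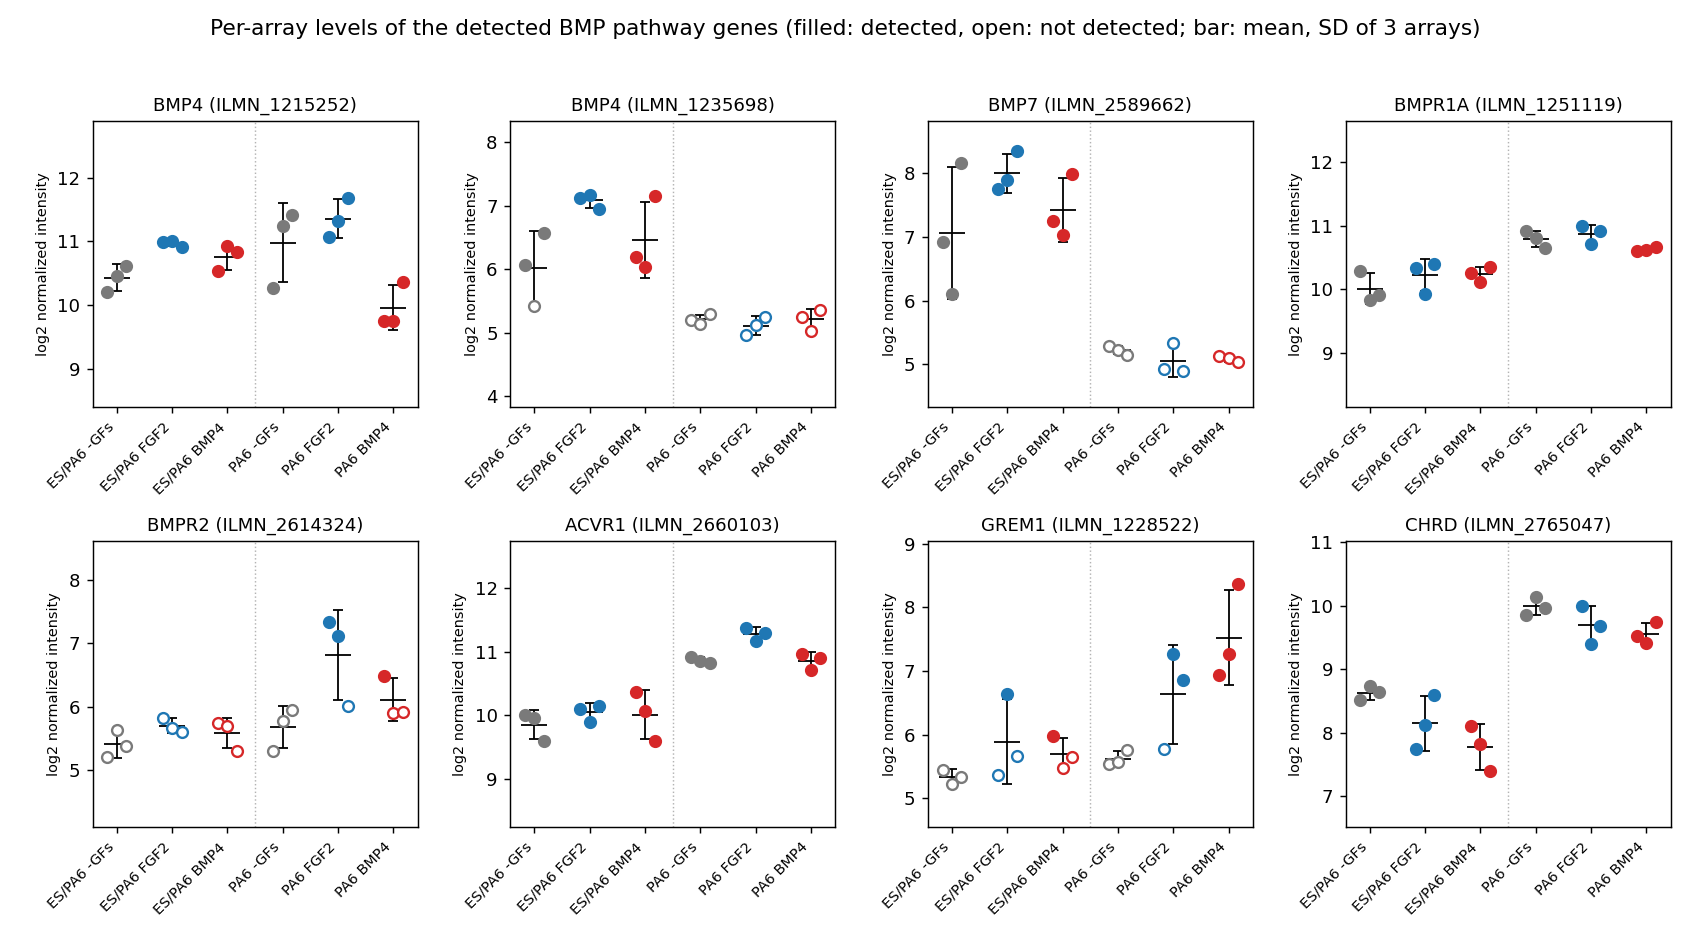
Log2 normalized intensity (y axis, each panel with a span of the same size) on each of the 18 arrays for 8 probes of the 7 tested genes, by group (x axis), with filled points for detected and open points for undetected arrays and bars for the mean and SD of 3 arrays. BMP7 is detected in ES/PA6 co-cultures alone, ACVR1 and CHRD lie higher on every PA6 array than on any ES/PA6 array, and GREM1 is brightest in PA6 BMP4 (mean 7.52).

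Among the receptors, BMPR1A, the type I receptor that BMP4 binds, was detected on every array. Its brighter probe ILMN_1251119 read 10.28, 9.83 and 9.91 in ES/PA6 -GFs and 10.91, 10.80 and 10.65 in PA6 -GFs, and ranged from 9.83 to 10.40 over the co-cultures and from 10.60 to 10.99 over the mono-cultures. The culture types did not overlap, and the difference in -GFs medium was -0.78 (95% interval -1.09 to -0.46, adjusted p = 0.000205), which passed the p threshold and not the fold threshold. Neither growth factor moved it past a threshold. With BMP4 it differed by 0.24 (95% interval -0.08 to 0.55) in the co-cultures and by -0.16 (95% interval -0.47 to 0.15) in PA6 cells, and with FGF2 by 0.21 and 0.09. The second BMPR1A probe, ILMN_2653312, read 9.0, 8.97 and 8.95 in PA6 FGF2 against 8.28, 8.39 and 8.53 in PA6 -GFs. Its difference of 0.57 (95% interval 0.18 to 0.96, adjusted p = 0.049) stayed under the fold threshold, and between culture types it differed by only -0.24 (adjusted p = 0.273).

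ACVR1, a type I receptor shared by BMPs and activins and also known as ALK2, was lower in the co-cultures. It read 10.01, 9.95 and 9.59 in ES/PA6 -GFs and 10.92, 10.86 and 10.82 in PA6 -GFs. No co-culture array reached the lowest mono-culture array, and the difference was 2.03-fold (-1.02, SE 0.168, adjusted p = 4.87e-05). Leaving out ES/PA6 -GFs replicate 3 (-0.89) or PA6 -GFs replicate 1 (-0.99) took it just under the fold threshold, with adjusted p-values of 0.000429 and 0.000349. The same held without background correction by quantile or spline (-0.95 in both) and with array weights (-1.0). With FGF2, ACVR1 read 11.38, 11.17 and 11.30 in PA6 cells, all above the -GFs arrays, but the difference of 0.41 (95% interval 0.06 to 0.77, adjusted p = 0.123) was not called. BMP4 left a difference of -0.01 (95% interval -0.37 to 0.34) in PA6 cells and of 0.16 (95% interval -0.20 to 0.52) in the co-cultures. The means ran from PA6 FGF2 (11.28) through PA6 -GFs (10.87) and PA6 BMP4 (10.86) to ES/PA6 FGF2 (10.05), ES/PA6 BMP4 (10.01) and ES/PA6 -GFs (9.85). The PA6 -GFs and BMP4 arrays overlapped, as did those of neighbouring co-culture groups.

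BMPR2, the main type II receptor for BMPs, stayed near background. Only ILMN_2614324 of its 3 probes was kept, through 3 arrays, all of PA6 cells with a growth factor. It read 5.31, 5.77 and 5.95 in PA6 -GFs, 7.33, 7.11 and 6.01 in PA6 FGF2, and 6.49, 5.90 and 5.92 in PA6 BMP4, with replicate 3 of PA6 FGF2 undetected and close to the -GFs arrays. The FGF2 arrays all lay above the -GFs arrays, and by limma BMPR2 was called higher with FGF2 (1.14, SE 0.279, adjusted p = 0.0107). The means differed at least 1.43-fold, a bound from the mean of 3 FGF2 arrays of which 2 were detected. Since the probe was kept only through arrays with a growth factor, the call is no independent support for a rise. The call was lost without PA6 -GFs replicate 1 (0.95), PA6 FGF2 replicate 1 (0.88) or PA6 FGF2 replicate 2 (0.99), where all 3 differences fell under the fold threshold, and the difference was 0.59 on intensities without background correction. In the co-cultures BMPR2 was undetected on all 9 arrays (5.21 to 5.83), and the FGF2 effect there differed from that in PA6 cells by -0.85 (95% interval -1.69 to -0.01, adjusted p = 0.203). Without PA6 FGF2 replicate 3 this difference (-1.25, adjusted p = 0.0174) and that of FGF2 against BMP4 in PA6 cells (0.71 with all arrays, 1.11 without it) were called. The other BMPR2 probes read 5.02 to 5.75 and 4.83 to 5.21 and showed no detected array in any group.

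GREM1, a secreted antagonist that binds BMP2 and BMP4, was raised by BMP4 in PA6 cells. It was undetected in PA6 -GFs, at 5.54, 5.57 and 5.75, and read 6.93, 7.27 and 8.36 in PA6 BMP4, all detected. The groups did not overlap, and GREM1 rose at least 2.33-fold with BMP4 (1.90, SE 0.387, adjusted p = 0.0145), higher in 3 of 3 replicate sets. Leaving out any array kept this call, and without background correction the difference was 1.03 (adjusted p = 0.0101). With FGF2, GREM1 read 5.77, 7.27 and 6.86 in PA6 cells, of which the first was undetected. The difference of 1.01 (95% interval 0.19 to 1.83, adjusted p = 0.101) missed the p threshold, and it was called with the replicate block (adjusted p = 0.0593) and without PA6 FGF2 replicate 1 (1.44, adjusted p = 0.0182). It also passed, still at 1.01, without replicate 1 or 2 of ES/PA6 FGF2 or replicate 1 or 3 of PA6 BMP4, which enter only the estimate of the spread. FGF2 and BMP4 arrays overlapped and differed by -0.89 (95% interval -1.71 to -0.07, adjusted p = 0.148), lower with FGF2, which was called without PA6 FGF2 replicate 2 (-1.21) or PA6 BMP4 replicate 1 (-1.18).

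In the co-cultures GREM1 was detected on 1 array with FGF2 and on 1 with BMP4. It read 5.45, 5.23 and 5.34 in ES/PA6 -GFs, 5.36, 6.64 and 5.67 with FGF2, and 5.97, 5.47 and 5.64 with BMP4. The BMP4 arrays lay above the -GFs arrays by a mean of 0.35 (95% interval -0.47 to 1.17), with no bound on the fold since their mean is under the floor. The interaction contrast of BMP4, with both -GFs groups undetected, was -1.54 (95% interval -2.71 to -0.38, adjusted p = 0.315) and was not called.

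CHRD, the antagonist chordin that is cleaved by BMP1-type proteases, was detected on every array and was higher in PA6 cells. It read 8.52, 8.73 and 8.64 in ES/PA6 -GFs and 9.86, 10.13 and 9.97 in PA6 -GFs. No arrays of the culture types overlapped, and the difference was 2.56-fold, lower in the co-cultures (-1.36, SE 0.216, adjusted p = 3.56e-05). With BMP4, CHRD read 8.11, 7.83 and 7.40 in the co-cultures, below every -GFs array, and with FGF2 it read 7.74, 8.12 and 8.60, overlapping them. The difference with BMP4 was -0.85 (95% interval -1.31 to -0.39, adjusted p = 0.0832), lower in 3 of 3 replicate sets. It passed the p threshold but not the fold threshold, and exceeded both without ES/PA6 BMP4 replicate 1 (-1.02, adjusted p = 0.0755). In PA6 cells the BMP4 difference was -0.42 (95% interval -0.88 to 0.03), so the effect in the co-cultures differed from it by -0.43 (95% interval -1.07 to 0.22). The order of the means was PA6 -GFs (9.99), PA6 FGF2 (9.69), PA6 BMP4 (9.56), ES/PA6 -GFs (8.63), ES/PA6 FGF2 (8.15) and ES/PA6 BMP4 (7.78), with overlap between all neighbours except across the culture types.

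NOG, the antagonist noggin that is used to induce neural tissue, was below detection on every array. It read 5.09 to 5.79 in ES/PA6 -GFs, 5.35 to 5.54 with FGF2 and 5.04 to 5.33 with BMP4, and 4.89 to 5.12 over the PA6 arrays. Its lowest detection p, 0.0652, was in ES/PA6 -GFs replicate 3. Noggin was thus not detectable with this probe.

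The wider pathway was described with 63 further genes in 5 lists, of which 60 were named on the array and 36 passed the detection filter. The lists were chosen with earlier results of these data known, so the shares called are a description only. In PA6 cells with BMP4, 7 of the 36 rose and 1 fell, 22.2% called beside the 1.41% of all genes. The largest rises were among direct targets. ID1, an inhibitor of basic helix-loop-helix factors, went from 7.75 ± 0.398 to 12.06 ± 0.0863 (SD, n = 3; log2 fold change 4.31, adjusted p = 8.72e-05). ATOH8 rose at least 8.75-fold (3.89, adjusted p = 4.08e-07) and HEY1 by 3.16 (adjusted p = 0.000331), both transcription factors of the helix-loop-helix class. Named after their values were seen, ID2, ID3, ID4 and the inhibitory SMAD6 also rose, by 1.85, 3.07, 1.78 and 1.47. The antagonist NBL1 fell by 1.04 (adjusted p = 0.0459). Of the 8 targets, 7 were tested and 6 rose, with a median of 3.07 beside 0.01 over all genes.

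In the co-cultures with BMP4 few list genes were called. Of the 36 genes 0 rose and 1 fell, 2.78% called beside 0.76% of all genes. RGMA, a membrane-anchored BMP co-receptor, fell by 1.20 (adjusted p = 0.00628). ID1 read 9.06 ± 0.634 in -GFs and 10.08 ± 0.813 with BMP4, a difference that was not called, and the 7 tested targets had a median of 0.28. The BMP4 effect on ID1 was smaller in the co-cultures than in PA6 cells by -3.29 (adjusted p = 0.033).

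**Figure D4:**
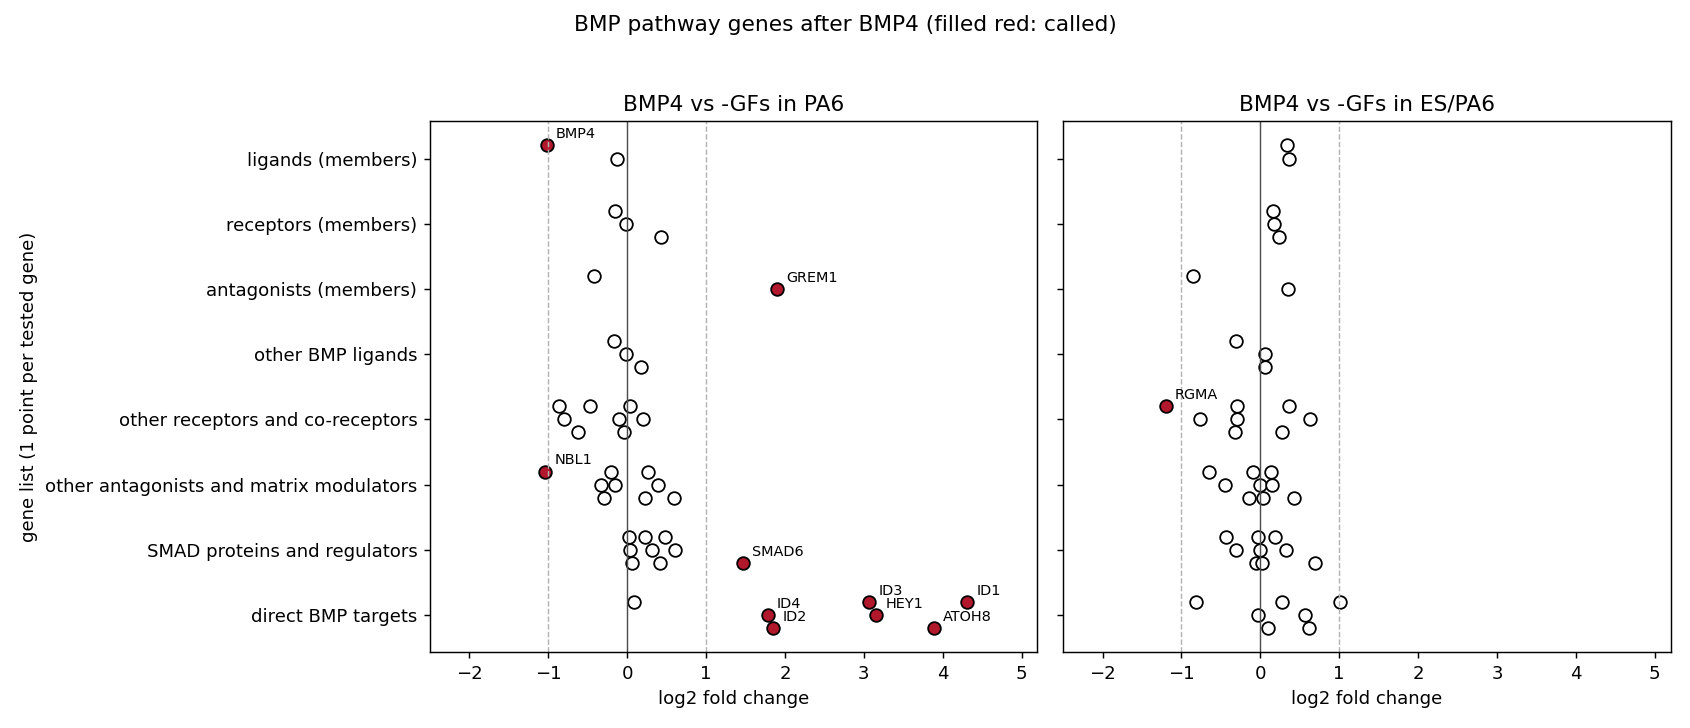
Log2 fold change with BMP4 against -GFs (x axis) of each tested gene (points) of the set and of the 5 wider lists (rows), in PA6 mono-cultures (left) and ES/PA6 co-cultures (right), with called genes filled red and named. In PA6 cells BMP4 (-1.02) and GREM1 (1.90) are called beside ID1 (4.31) and 7 other list genes, and in the co-cultures only RGMA (-1.20) is.

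FGF2 called 7 of the 36 list genes in PA6 cells, 19.4% beside 5.27% of all genes, with 5 higher and 2 lower. ATOH8 rose at least 2.84-fold (2.27, adjusted p = 1.2e-05), ID3 by 2.20 (adjusted p = 4.08e-06) and ACVR1B, an activin type I receptor, by 1.48 (adjusted p = 1.24e-05). ID4 fell by 1.91 (adjusted p = 2.42e-05), and HEY1, undetected with FGF2 and detected on 2 of 3 -GFs arrays, was at least 1.24-fold lower (adjusted p = 0.0423). ID1 read 8.46 ± 0.952 with FGF2 against 7.75 ± 0.398 in -GFs and was not called. In the co-cultures FGF2 called 0 of the 36 genes by limma, beside 3.34% of all genes. An unadjusted p under 0.05 was reached by 7 of the 36, where 17.8% of all genes reached it. Between FGF2 and BMP4, RGMA (1.66) and BMP1 (1.01), the protease that cleaves chordin, were higher with FGF2 in the co-cultures, 5.56% of the 36 beside 2.85% of all genes. In PA6 cells 25% were called beside 5.82% of all genes. Of these, 3 genes were higher with FGF2, NBL1 (1.45), BMP1 (1.31) and ACVR1B (1.27), and 6 were lower, among them ID4 (-3.69), ID1 (-3.59) and HEY1 (at least 11.1-fold).

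Between culture types in -GFs medium, 23 of the 36 list genes were called, 63.9% beside 39% of all genes. In the co-cultures 6 of them were higher and 17 lower. GDF3, a ligand of pluripotent cells, was at least 72.8-fold higher (7.06, adjusted p = 2.61e-14), ACVR2B, an activin and BMP type II receptor, was higher by 2.70 and HEY1 by 2.56. NBL1 (-2.82), GDF9 (-2.28) and ACVRL1 (-2.24) were the most reduced. Of the 9 tested antagonists and matrix modulators beside CHRD and GREM1, 8 were lower and 0 higher, with a median of -1.40, and of the 8 tested further receptors 5 were lower and 1 higher, with a median of -1.21, beside -0.11 over all genes.

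Markers of the cell types moved with these contrasts. In -GFs medium all 6 tested pluripotency markers were higher in the co-cultures (median 6.39), with NANOG, SOX2, ZFP42, UTF1 and TDGF1 undetected in PA6 -GFs, and the list's mean level was 11.31 to 12.05 in ES/PA6 -GFs and 5.44 to 5.74 in PA6 -GFs. Of 8 stromal markers, 6 were lower (median -1.59), at 10.54 to 10.76 against 11.93 to 12.22. All 4 tested adipocyte markers were lower (median -3.25), all 3 tested neural markers were higher (median 3.38) and 2 of 4 tested endothelial markers were higher. These shifts stand beside those of BMP7, ACVR1 and CHRD, and their part in them was not tested. Of the adipocyte markers, which PA6 cells express as a line with preadipocyte character, 3 of 4 fell with FGF2 in PA6 cells. Their mean level was 7.22 to 7.77 against 11.04 to 11.36 in -GFs. In this comparison, where BMPR2 was called higher, 2 of the 8 stromal markers also fell. With BMP4 in PA6 cells 0 of the 4 adipocyte markers were called by limma, 3 had an unadjusted p under 0.05 and their mean level was 12.29 to 13.35. In this comparison, where BMP4 was called lower and GREM1 higher, 1 of the 8 stromal markers was lower. In the co-cultures with BMP4, CHRD differed by -0.85 without being called. There 1 of 3 tested neural markers and 1 of 8 stromal markers, COL3A1 (-1.16), fell. In the same comparison 2 of 4 adipocyte markers and 1 of 4 endothelial markers, PECAM1 (1.17), rose. The other endothelial markers tested, TEK (0.36), CDH5 (0.33) and ICAM2 (0.03), were not called. The stromal markers' mean level was 10.13 to 10.40 there, against 10.54 to 10.76 in -GFs. Their part in the members' differences was not tested.

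Genes whose pattern over the 18 arrays was most like each tested gene were listed by Pearson's r, as a description only. The arrays share 6 groups, and where a gene differs between culture types r is led by that contrast. For BMP7 the nearest were KLK1B5 (0.98), LOC270344 (0.979) and TMEM16J (0.979), and for ACVR1 PARP8 (0.979), FGF7 (0.974) and TGM2 (0.969). CHRD was nearest to PARP6 (0.971), EN1 (0.968) and TROVE2 (0.964), and BMPR1A to OLFR802 (0.932), THAP4 (0.928) and VWA5A (0.926). GREM1 lay closest to POR (0.844), ID3 (0.824) and HPCA (0.815), BMPR2 to AKAP2 (0.896), RPN2 (0.876) and 9830134K01RIK (0.873). BMP4 had the loosest neighbours, 2810474C18RIK (0.82), ENTPD4 (0.763) and EG545253 (0.738).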

How the data were processed

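Total RNA of 18 cultures was labelled with biotin and hybridised to Illumina MouseWG-6 v2.0 arrays by the authors. The deposited table holds non-normalized probe intensity values on a linear scale with a deposited detection p-value for each, read out with GenomeStudio 2011.01 per the submitters' processing notes. In 10 detection columns 5 stray lines held shifted values, and these lines were left out. Intensities were background-corrected and normalized by neqc in limma 3.58.1 (R 4.3.3), with an offset of 16 that shrinks the fold changes of dim probes. The cubic spline named in the study's methods was an alternative. A filter on detection (p under 0.05, 3 or more arrays) kept 22987 probes, and the probe with the largest mean stood for its gene (16446 genes). Genes are named as in the array table. Each comparison is a contrast of 6 group means in 1 limma fit over the 18 arrays, called as described above. With 3 arrays per group a permutation cannot give a p below 0.1.

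All 10 genes are named, with at most the 3 largest called rises and falls per comparison from the wider lists, and ID1. The genes and lists were chosen with earlier results of these data known. Same-numbered arrays deviated together in the co-cultures (r 0.325 to 0.521 over 9 pairs), less so in PA6 cells (0.0628 to 0.164), and the labels describe 1 well per condition in each biological replicate, so blocking on the replicate number, separately in both culture types, was tried. Other alternatives concerned the background correction, scaling, detection filter, probe choice, arrays fitted, variance model, array weights, thresholds and each array left out. The limma steps were tested on simulated data. Sequences are from RefSeq. Probe sequences were not used here, and 1 result of the wider lists is not reported here.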

Additional observations from a re-analysis of the deposited data

Results flagged for a closer look

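The effect of a growth factor differed between the culture types, by the interaction contrast, for 1 of the 9 detected probes of the set and for 11 results of the wider pathway lists. The probe was called for FGF2, where 7.43% of all detected probes were. Of the 36 tested list genes, 13.9% were called for FGF2 beside 7.39% of all genes, and 19.4% for BMP4 beside 0.559%. These shares count every called list gene. Each value is the log2 effect in ES/PA6 co-cultures minus that in PA6 mono-cultures. With FGF2 the second BMP4 probe, ILMN_1235698, gave 1.16 (adjusted p = 0.0641), but it was detected on 0 of 9 PA6 arrays and could not measure an effect there. The brighter BMP4 probe, detected on all arrays, gave 0.17 (adjusted p = 0.833). For FGF2, ACVR1B (-1.44), BMPER (-1.26), a secreted BMP modulator, and ID3 (-1.75) had lower log2 effects in the co-cultures, and ID4, which fell with FGF2 in PA6 cells, a higher one (2.15). ACVR1B read 9.26 and 9.30 without and with FGF2 in the co-cultures, against 9.93 and 11.41 in PA6 cells. For BMP4, the targets ID1 (-3.29), HEY1 (-3.06), ID2 (-2.67) and ID3 (-2.45) had lower log2 effects in the co-cultures. ATOH8 gave -3.61, but it was undetected in both -GFs groups and detected on 1 of 3 co-culture arrays with BMP4, so neither this value nor its -1.91 with FGF2 (1 of 3 detected) is exact. HEY1 read 9.14 and 9.24 without and with BMP4 in the co-cultures, against 6.58 and 9.74 in PA6 cells. The co-receptor ENG differed by 1.44, reading 8.30 and 8.94 in the co-cultures against 8.0 and 7.19 in PA6 cells.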

How the results depend on the processing

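None of the called differences changed direction in any alternative. The number of members called changed as follows, and unless stated the cause was not tested. With FGF2 in the co-cultures (0 called) median scaling gave 1, and leaving out each array gave 0 to 1. With BMP4 in the co-cultures (0) dropping the fold threshold gave 1, and leaving out each array 0 to 1. With FGF2 in PA6 cells (1), quantile normalization or the cubic spline without background correction gave 0, detection on all 18 arrays gave 0, since BMPR2 was then not tested, trend and robust variance, array weights and the replicate block each gave 2, and leaving out each array gave 0 to 2. With BMP4 in PA6 cells (2), quantile normalization or the spline without background correction, detection on all 18 arrays, the mean of a gene's probes and the fit of PA6 arrays alone each gave 1, and leaving out each array gave 1 to 2. Between FGF2 and BMP4 in the co-cultures leaving out each array gave 0 throughout. Between FGF2 and BMP4 in PA6 cells (1), the mean of a gene's probes gave 0 and leaving out each array 1 to 2. Between culture types (3), dropping the fold threshold gave 5, quantile normalization or the spline without background correction and array weights each gave 2, detection on all 18 arrays gave 2, since BMP7 was then not tested, and leaving out each array 2 to 3. In the FGF2 interaction (0) the replicate block gave 1 and leaving out each array 0 to 1. In the BMP4 interaction (0) quantile normalization or the spline without background correction gave 1, the replicate block gave 1 and leaving out each array 0 to 1.

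The pairing was followed by a replicate block within each culture type, which gives no value across culture types. It changed the calls of BMP4 and BMP7 in the interactions and of GREM1 with FGF2 in PA6 cells, and no other member call. Over all genes it called 215 with BMP4 in the co-cultures in place of 125, and 305 in the BMP4 interaction in place of 92. Without background correction (quantile normalization) 274 in place of 550 genes were called with FGF2 in the co-cultures, 68 in place of 125 with BMP4, and 533 in place of 867 and 135 in place of 232 in PA6 cells. Detection on all 18 arrays, which tests fewer genes, gave 125, 30, 459 and 113 in the same order, and no fold threshold gave 1489, 280, 3083 and 632. With BMP4 in the co-cultures, 10 genes were called from the co-culture arrays alone and 52 without ES/PA6 -GFs replicate 2, and the BMP4 interaction called 42 without that array. Between FGF2 and BMP4 the co-culture arrays alone called 286 in place of 469. Detection on all 18 arrays leaves out BMP7, BMPR2, GREM1 and the second BMP4 probe. Fitting each culture type alone gives no value for contrasts across them, and averaging probes none for single probes. Over the genes and probes of the set, 2342 alternative values kept their side of the thresholds, 34 lost a call, 27 gained one and 18 moved beyond the spread between replicates. Fold changes of dim probes (BMP7, BMPR2, GREM1 and the second BMP4 probe) are limited by signal over background, and 3 arrays per group limit the rest.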
